A study of Mus musculus with 21 samples.

Results

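Etv1, Etv4 and Etv5 are the 3 mouse genes of the PEA3 family, here found by symbol among the 31053 gene IDs that were counted in every library. They were followed in mRNA sequencing of 21 libraries of the cell line E14Tg2a. These are male mouse embryonic stem cells from the 129 background that carry, on 1 allele of the Rex1 locus, an inserted GFPd2 reporter. The libraries formed 7 groups of 3 replicates, named in the labels by medium and by PO, LP or HP: 2i+LIF PO, 2i+LIF LP, CH+LIF LP, LIF LP, 2i+LIF HP, CH+LIF HP and LIF HP. All groups shared a start of 1 week in NDiff227 medium with 3 µM CHIR99021, an inhibitor of the kinase GSK3, and 1 µM PD, the labels' name for PD0325901, an inhibitor of the kinase MEK. Drugs were then given and withdrawn in turn at the passages, with CH, PD and the cytokine LIF. Cultures were sampled at zero passage and after 1 and 2 months. The labels leave the culture lengths of LP and HP unstated, and do not say which drugs were present when RNA was taken. PO was read as zero passage, since it occurs in 2i+LIF alone. Nothing in the labels says that replicates came from separate cultures, so the p-values below measure the spread between these libraries, which may be technical.

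The PEA3 genes encode transcription factors of the ETS class, which bind DNA at a core of GGA followed by A or T. In many tissues they are induced by fibroblast growth factor (FGF) signalling: a ligand such as Fgf4 binds its receptor, the RAS, RAF, MEK and ERK proteins pass the signal on, and ERK relieves the repressor Capicua (Cic), which otherwise holds PEA3 genes down. Feedback inhibitors such as Dusp6, a phosphatase that acts on ERK, and the Sprouty proteins are induced by the same signal, so PEA3 genes and these inhibitors are commonly read as markers of ERK activity. In mouse embryonic stem cells FGF4 acting through ERK promotes exit from the naive state, and 2i, the field's name for the pair of GSK3 and MEK inhibitors, is used to hold that exit back. Etv4 and Etv5 are also known in these cells as factors of proliferation and of the passage from naive to primed pluripotency. Etv1 has best known roles in neurons, muscle spindles and interstitial cells of the gut.

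In GENCODE M21 on GRCm38, Etv1 (ENSMUSG00000004151) lies on the forward strand at chr12:38779380-38870484. Etv4 (ENSMUSG00000017724) lies on the reverse strand at chr11:101769742-101785371. Etv5 (ENSMUSG00000013089) lies on the reverse strand at chr16:22381309-22439719. None of the 3 overlaps another annotated gene. The promoter windows of RefSeq (GRCm38.p6), each from 250 bases before to 50 bases after a start site, held 2 windows each for Etv1 and Etv5, and 1 window of each gene is shown to set the promoter letters of a gene that varied widely between groups beside those of a gene that did not. Capitals mark GGAAGT, an ETS core, and TGAATG, the first 6 letters shared by the octamers TGAATGAA and TGAATGGA that Capicua is known to bind, on either strand. The Etv1 window is chr12:38779832-38780131 on the forward strand and the Etv5 window is chr16:22438319-22438618 on the reverse strand, both inside the annotated bounds of their genes.
Etv1 promoter: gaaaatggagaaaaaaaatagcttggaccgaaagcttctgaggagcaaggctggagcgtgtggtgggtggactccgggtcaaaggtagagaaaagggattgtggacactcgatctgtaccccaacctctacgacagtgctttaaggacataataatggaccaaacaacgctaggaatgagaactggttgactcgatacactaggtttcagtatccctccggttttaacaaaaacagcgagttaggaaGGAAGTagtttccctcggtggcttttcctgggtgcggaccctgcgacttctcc
Etv5 promoter: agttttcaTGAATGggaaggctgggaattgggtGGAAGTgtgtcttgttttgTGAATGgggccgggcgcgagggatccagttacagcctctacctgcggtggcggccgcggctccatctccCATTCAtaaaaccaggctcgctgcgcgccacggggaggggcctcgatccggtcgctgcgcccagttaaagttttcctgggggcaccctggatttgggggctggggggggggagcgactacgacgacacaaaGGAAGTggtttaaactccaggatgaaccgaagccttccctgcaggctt
The Etv1 window held GGAAGT once, at position -3, counting the start site as 1 with no position 0. The Etv5 window held GGAAGT at positions -217 and 3 and TGAATG at -242, -198 and, on the opposite strand, -129. Among 32851 windows of the same 300 bases, 23.8% held GGAAGT at least once and 4.18% held it 2 or more times. TGAATG was found in 12.7% of windows and 3 or more times in 0.17%. The hexamer was taken up after the sequence had been seen. The other window of each gene, at chr12:38783461-38783760 for Etv1 and chr16:22439521-22439820 for Etv5, held neither motif. No window of Etv1 or Etv5 held TGAATGAA (1.3% of all windows, both strands), TGAATGGA (1.21%), the longer ETS site CCGGAAGT (3.89%), the STAT motif TTCNNNGAA (8.3%) or the TCF motif CTTTGAT (3.73%). GC content was 48.7 and 44% in the Etv1 windows and 74 and 60% in the Etv5 windows, against a median of 52.7%.

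Gene counts per library ranged from 1132126 to 3783043, with a median of 1763531, and were scaled to counts-per-million (CPM) with TMM factors. The libraries 2i+LIF LP replicate 1 and 2i+LIF PO replicate 1 stood apart, with mean correlations of 0.787 and 0.83 to the replicates of their own group, against 0.857 to 0.944 in the other 19. The first drew 31.65% of its counts from the single gene Gm42418 and the second 39.09% from mitochondrial genes, and the calls below were also made without both. The 3 PO libraries carry another run name than the other 18, so run and PO cannot be told apart. The pluripotency genes Pou5f1, Sox2 and Nanog were expressed in all 7 groups. Over all libraries the summed levels of markers ranged from 15.9 to 70.5 CPM for primitive endoderm (7 genes), 3.83 to 36.9 CPM for fibroblasts (6 genes), 5.81 to 47.4 CPM for mesoderm (6 genes), 35.5 to 253 CPM for neural ectoderm (6 genes) and 0 to 43.1 CPM for trophoblast (5 genes). The pluripotency list of 12 genes summed to 1679 to 4894 CPM. In these bulk samples, fewer cells that express a gene and less RNA per cell cannot be told apart.

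Etv4 varied most widely between groups: its highest group mean was 29.5 times its lowest, against 7.71 times for Etv1 and 1.45 times for Etv5. Counts per library were 3 to 86 for Etv1, 5 to 392 for Etv4 and 179 to 1268 for Etv5. Depth therefore limited Etv1 most.

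**Figure D1:**
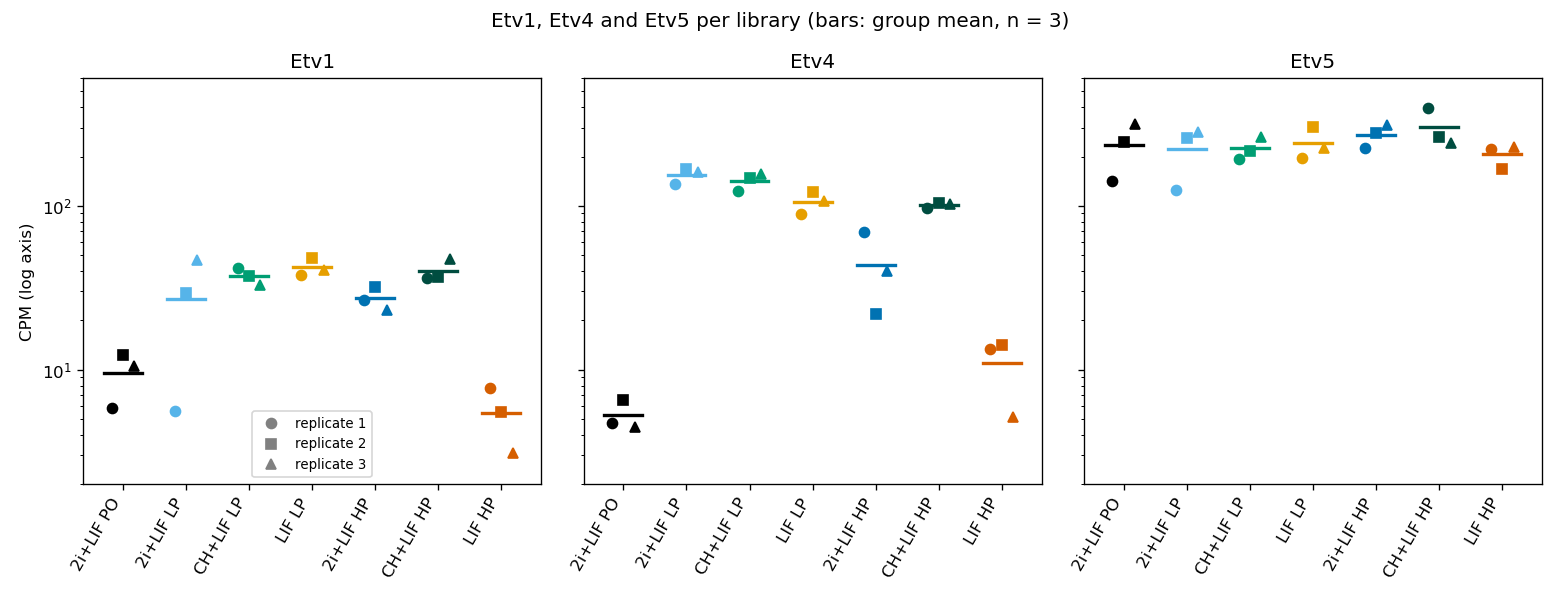
Levels of Etv1, Etv4 and Etv5 in CPM on a log axis for each of the 21 libraries, by group, with points for libraries, shaped by replicate, and horizontal bars for group means (n = 3). Etv1 and Etv4 are low in 2i+LIF PO and LIF HP, Etv4 is between the extremes in 2i+LIF HP, and the groups of Etv5 overlap except LIF HP and CH+LIF HP.

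Etv1 was low in 2i+LIF PO and in LIF HP and several times higher in most other libraries. Its level was 5.80, 12.3 and 10.5 CPM in the 3 libraries of 2i+LIF PO, in replicate order, and 7.73, 5.54 and 3.09 CPM in LIF HP. The LIF LP libraries held 38.0, 47.8 and 40.4 CPM. Levels in CH+LIF LP were 41.7, 37.5 and 32.6 CPM, close to the 36.3, 36.7 and 47.2 CPM of CH+LIF HP. In 2i+LIF HP the libraries held 26.5, 32.2 and 23.0 CPM. The 2i+LIF LP libraries spread widest, at 5.61, 29.3 and 46.4 CPM, the low value being 8 counts in replicate 1. By group mean the order was LIF LP, CH+LIF HP, CH+LIF LP, 2i+LIF HP, 2i+LIF LP, 2i+LIF PO and LIF HP. Neighbours in that order overlapped, except CH+LIF LP and 2i+LIF HP, whose nearest libraries stood at 32.6 and 32.2 CPM. That pair was not tested.

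Etv4 was very low in 2i+LIF PO and LIF HP, intermediate in 2i+LIF HP and high elsewhere. Its level was 4.75, 6.54 and 4.49 CPM in 2i+LIF PO, where counts were 9, 25 and 18. In LIF HP it was 13.4, 14.2 and 5.15 CPM, from 26, 23 and 5 counts. The 2i+LIF HP libraries held 68.8, 21.8 and 40.2 CPM, the widest spread of this gene in proportion to its mean. Levels reached 135, 169 and 161 CPM in 2i+LIF LP, and 123, 148.9 and 155.7 CPM in CH+LIF LP. They were 88.7, 121 and 108 CPM in LIF LP, and 96.7, 104 and 102 CPM in CH+LIF HP. Going down by group mean, the libraries of 2i+LIF LP and CH+LIF LP overlapped, as did those of LIF LP and CH+LIF HP and those of LIF HP and 2i+LIF PO. The steps from CH+LIF LP to LIF LP, from CH+LIF HP down to 2i+LIF HP, and from there to LIF HP, left no overlap, where 14.2, 19.7 and 28% of all genes had none in either direction. In 2i+LIF LP replicate 1, Etv4 stood at the level of its group with 193 counts, while Etv1 there was below every library of the other cultured groups outside LIF HP.

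Etv5 was expressed in every library, and its group means lay closer together than those of the other members. The libraries held 141.4, 244 and 316 CPM in 2i+LIF PO and 126, 260.1 and 284 CPM in 2i+LIF LP, the lowest value of each being the library that stood apart. Levels were 192, 216 and 265 CPM in CH+LIF LP and 196, 301 and 224 CPM in LIF LP. At HP they were 225, 279.6 and 310.5 CPM in 2i+LIF, 398, 265 and 241 CPM in CH+LIF, and 224, 169 and 229.8 CPM in LIF. Each pair of neighbours in the order of group means overlapped, from CH+LIF HP at 301 ± 84.3 CPM to LIF HP at 207 ± 33.6 CPM (mean ± SD, n = 3 each).

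The first set of comparisons asked whether the genes differ between HP and LP within a medium. In LIF, Etv1 and Etv4 fell and Etv5 did not pass the test: 2 of the 3 genes were called, where 9.96% of the 10643 genes tested were called in either direction. A gene was called when edgeR's quasi-likelihood test gave a Benjamini-Hochberg adjusted p under 0.05 over all genes tested. Etv1 went from 42.1 ± 5.11 CPM in LIF LP to 5.45 ± 2.32 CPM in LIF HP (SD, n = 3 each), 7.29-fold lower, a log2 change of -2.87 with a standard error of 0.52 and an edgeR adjusted p of 0.00125. Etv4 went from 106 ± 16.2 to 10.9 ± 5.00 CPM, 9.31-fold lower, with a log2 change of -3.22, a standard error of 0.40 and an edgeR adjusted p of 1.3e-05. For both genes the highest LIF HP library lay below the lowest LIF LP library, as it did for 19.3% of all genes. The Etv5 change was -0.21 on the log2 scale, with a 95% interval of -0.97 to 0.55 and overlapping libraries (edgeR adjusted p = 0.755). Neural ectoderm markers moved with these falls: their summed level was 189.5 to 208 CPM in LIF LP and 88.1 to 144.8 CPM in LIF HP, with Sox1, a neural progenitor factor, called lower among 4 tested, a call lost in 4 of the 21 fits that each left out 1 library. Fibroblast markers summed to 11.1 to 36.9 CPM in LIF LP and 7.39 to 9.79 CPM in LIF HP. Of 2 tested fibroblast markers edgeR and DESeq2 called 0, and 0 had an unadjusted p under 0.05. Trophoblast markers summed to 0 to 1.10 CPM in LIF LP and 5.15 to 9.79 CPM in LIF HP. Of 2 tested, edgeR called 0 and DESeq2 0, both had an unadjusted p under 0.05, and edgeR called 1 higher without both libraries that stood apart. Of 12 pluripotency genes edgeR called 2 lower, Utf1 and Sall4, the latter lost in 14 of the 21 fits, while their sum overlapped at 3101 to 3536 and 3142 to 3405 CPM. All genes called lower were 4.63%. Without both libraries edgeR called 4 of the pluripotency genes lower and 2 higher, beside 10.2 and 11.5% of all genes. Libraries differed as well: entries that aligned to several places were 23.1 to 25.6% of all in LIF LP and 30.3 to 35.45% in LIF HP, and TMM factors were 1.09 to 1.22 and 0.65 to 0.96. The part of these markers and of library quality in the falls was not tested.

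In 2i+LIF, 1 of the 3 genes fell from LP to HP, Etv4, where 3.67% of all genes tested were called. Its mean was 155.1 ± 17.5 CPM at LP and 43.6 ± 23.7 CPM at HP (SD, n = 3 each). All HP libraries lay below all LP libraries, as they did for 8.41% of all genes. The log2 change was -1.82 with a standard error of 0.36 (edgeR adjusted p = 0.004), or 3.54-fold lower. Etv1 stood at 27.1 ± 20.5 and 27.2 ± 4.62 CPM, with an edgeR adjusted p of 0.9998 and an interval for the log2 change of -0.96 to 0.96. That comparison rests on the LP library with 8 counts: without it the Etv1 change was -0.44 and was again not called. The Etv5 difference was 0.28 on the log2 scale, with an interval of -0.48 to 1.04 (edgeR adjusted p = 0.7425). Fitted on the libraries of 2i+LIF LP and HP alone, the Etv4 fall was as large at -1.86 but had an edgeR adjusted p of 0.132.

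Markers of other lineages also differed between 2i+LIF HP and LP. Summed levels of the 5 trophoblast markers Cdx2, Elf5, Hand1, Gcm1 and Krt7 were 24.2 to 43.1 CPM there against 0 to 7.01 CPM in 2i+LIF LP. Cdx2, the regulator that sets up the trophoblast, and the keratin Krt7 were called higher, 2 of 2 tested markers, while Elf5 had no count in any library. The mesoderm factor T was also higher, 1 of 3 tested with a median log2 change of 1.14, beside 1.63% of all genes called higher. With 1 library left out, these calls were lost in 7 of 21 fits for Cdx2 and in 4 each for Krt7 and T. Neural ectoderm markers summed to 35.5 to 156.2 CPM at HP and 110 to 253 CPM at LP, with Sox1 called lower among 4 tested (lost in 4 of 21 fits) and a median log2 change of -0.93. Summed levels of 12 pluripotency genes were 1679 to 2603 CPM at HP and 3058 to 4510 CPM at LP of this medium. Of these genes, Tbx3, Tdgf1 and Utf1 were called lower, beside 2.05% of all genes. The part of these markers in the Etv4 fall was not tested. In LIF HP, where Etv1 and Etv4 were lowest among cultured groups, the pluripotency sum was 3142 to 3405 CPM and the trophoblast sum 5.15 to 9.79 CPM.

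In CH+LIF, 0 of the 3 genes were called between HP and LP by edgeR's quasi-likelihood test, where 0.0094% of all genes were called, a single gene. None of the 3 had an unadjusted p under 0.05, and DESeq2 and the other alternative fits also called none. The log2 changes were 0.10 for Etv1 (interval -0.86 to 1.06), -0.49 for Etv4 (-1.25 to 0.26) and 0.43 for Etv5 (-0.33 to 1.19). The Etv4 libraries of CH+LIF HP lay below all of CH+LIF LP, at 101 ± 3.99 against 142.4 ± 17.5 CPM, as did those of 7.13% of all genes. The Etv1 and Etv5 libraries overlapped.

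Whether a change differs between media was tested directly, as an interaction in the same fit. The fall in LIF exceeded the change in CH+LIF by -2.97 ± 0.68 for Etv1 and -2.73 ± 0.52 for Etv4 on the log2 scale (estimate ± standard error), with edgeR adjusted p-values of 0.0474 and 0.0189. That was 2 of the 3 genes, where 0.423% of all genes were called. The Etv5 difference was -0.64 ± 0.50, with an interval of -1.71 to 0.43 (edgeR adjusted p = 0.6431). The Etv1 call stood near the threshold and was lost in 16 of the 21 fits that each left out 1 library, among them every fit without a library of LIF LP, LIF HP, CH+LIF LP or CH+LIF HP, with values of -3.35 to -2.77. With the replicate number as a block it was lost too (-2.90, edgeR adjusted p = 0.0572). The Etv4 call was lost in 5 of the 21, without CH+LIF LP replicate 3, LIF LP replicate 2, CH+LIF HP replicate 2 or 3 or LIF HP replicate 3, with an edgeR adjusted p of at most 0.075. Between 2i+LIF and CH+LIF the difference in change was -1.33 for Etv4 (interval -2.40 to -0.26), -0.10 for Etv1 and -0.14 for Etv5, and edgeR called 0 of the 3 (adjusted p = 0.5837 for Etv4), as did DESeq2, where 0.0188% of all genes were called. At an unadjusted p under 0.05, 1 of the 3 passed, Etv4. The fall of Etv4 in 2i+LIF is therefore not shown to differ from its change in CH+LIF.

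**Figure D2:**
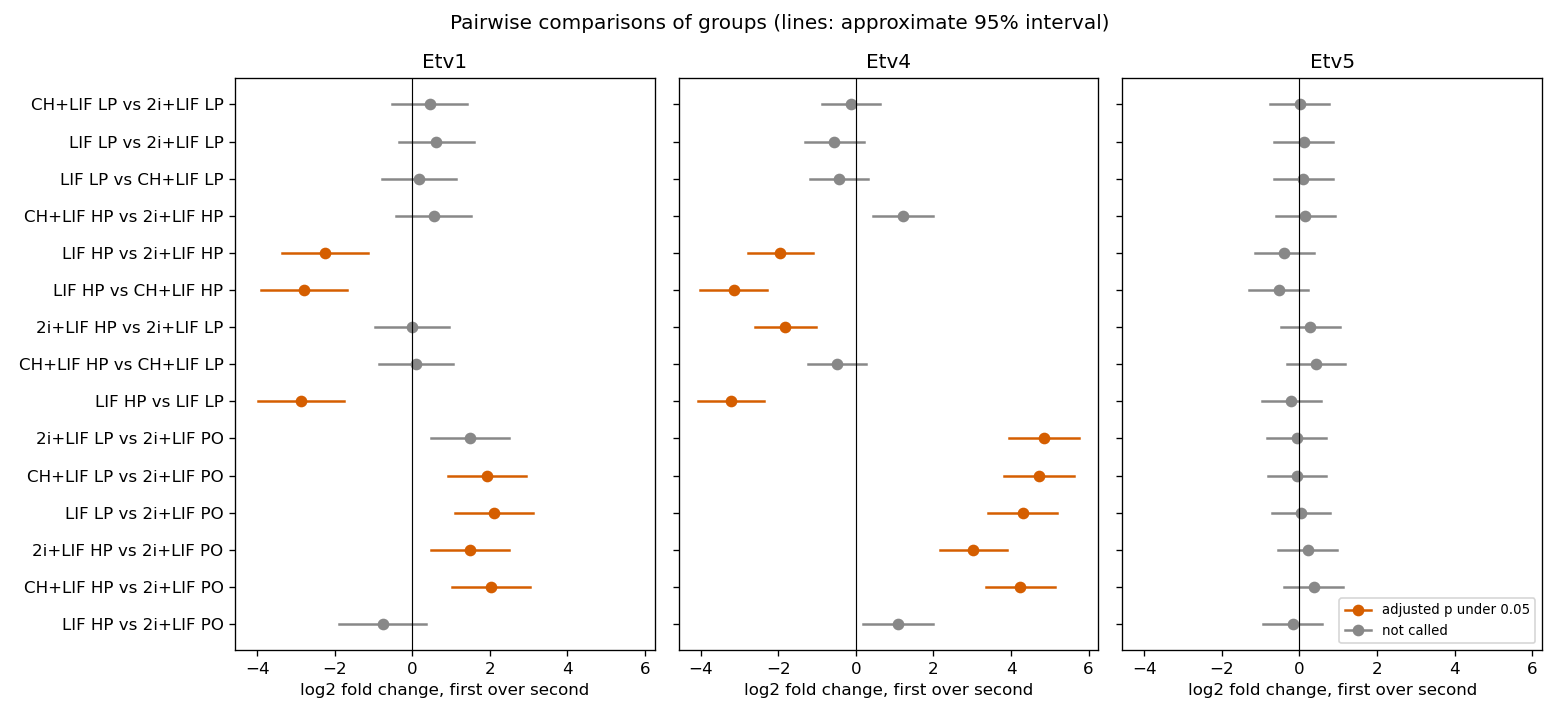
Log2 fold changes of Etv1, Etv4 and Etv5 in the 15 comparisons of groups, as points with approximate 95% intervals from the edgeR fit, orange where the adjusted p is under 0.05 and grey elsewhere. Etv1 and Etv4 are called lower in LIF HP when it is set against LIF LP, CH+LIF HP or 2i+LIF HP. Against 2i+LIF PO, Etv4 is called higher in 5 of 6 cultured groups and Etv1 in 4 of 6, neither of them in LIF HP, while each Etv5 interval spans 0.

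At HP, media separated Etv1 and Etv4. LIF HP held less of both than CH+LIF HP, 2 of the 3 genes, where 1.47% of all genes were called. Etv1 was at 40.1 ± 6.17 CPM in CH+LIF HP and 6.94-fold lower in LIF HP (log2 -2.80, edgeR adjusted p = 0.00577). Etv4 was 8.90-fold lower (log2 -3.15, standard error 0.40, edgeR adjusted p = 8.44e-05), which placed it at rank 2 by p among all 10643 genes. The Etv5 libraries of LIF HP lay below all of CH+LIF HP, with a log2 difference of -0.54 that edgeR did not call (adjusted p = 0.5011, interval -1.30 to 0.22). All LIF HP libraries lay below all CH+LIF HP libraries for 14.6% of all genes.

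LIF HP also held less Etv1 and Etv4 than 2i+LIF HP, 2 of the 3 genes, where 3.78% of all genes were called. The log2 differences were -2.25 for Etv1 and -1.95 for Etv4, with standard errors of 0.52 and 0.39 and edgeR adjusted p-values of 0.0149 and 0.00505. Both calls depended on single libraries. The Etv1 call was lost without 2i+LIF HP replicate 2 (-2.11), LIF HP replicate 2 (-2.24) or LIF HP replicate 3 (-2.05), with an edgeR adjusted p of at most 0.079. The Etv4 call was lost without 2i+LIF HP replicate 1, the highest library of its group, at -1.43 and an edgeR adjusted p of 0.0527. Etv5 differed by -0.39 (interval -1.15 to 0.37, edgeR adjusted p = 0.579) with overlapping libraries.

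Between CH+LIF HP and 2i+LIF HP, edgeR called 0 of the 3 genes, where 2.02% of all genes were called. At an unadjusted p under 0.05, 1 of the 3 passed, Etv4. Etv4 was 2.31-fold higher by estimate in CH+LIF HP (log2 1.21, interval 0.43 to 1.98, edgeR adjusted p = 0.0912). DESeq2 called this difference at 1.18 (DESeq2 adjusted p = 0.0316), and edgeR called it without 2i+LIF HP replicate 1, at 1.73 and an adjusted p of 0.018. The Etv1 difference was 0.55 (interval -0.42 to 1.52) and the Etv5 difference 0.15 (interval -0.61 to 0.91). All CH+LIF HP libraries lay above all 2i+LIF HP libraries for Etv1 and Etv4, as they did for 10.3% of all genes.

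At LP the 3 media were not separated by any of the genes. In edgeR, 0 of the 3 were called in CH+LIF LP or LIF LP against 2i+LIF LP or in LIF LP against CH+LIF LP, where 0, 0.489 and 0.047% of all genes were called. None of the 3 had an unadjusted p under 0.05 in these comparisons, and DESeq2 and the other alternative fits also called none. Levels of Etv4 in LIF LP were below all libraries of the other media, by -0.55 on the log2 scale against 2i+LIF LP (interval -1.30 to 0.20, edgeR adjusted p = 0.5549) and -0.43 against CH+LIF LP (interval -1.18 to 0.32). The same absence of overlap, with LIF LP the lower, was found for 7.19 and 7.07% of all genes in these comparisons. The Etv1 difference of LIF LP from 2i+LIF LP was 0.62 and moved to 0.17 without 2i+LIF LP replicate 1. These intervals still allow differences of over 1 on the log2 scale. The name 2i+LIF includes the MEK inhibitor. Etv4 in 2i+LIF LP lay above LIF LP, a difference that was not called. Dusp6 and Spry4 in 2 of its libraries stood near or above the mean levels of LIF LP given below. Replicate 1 held 0.701 CPM of Dusp6 and 2.81 CPM of Spry4. The labels do not say whether PD was present when RNA was taken. It is therefore not known whether the 2i+LIF LP cells were under the inhibitor, and its part in these levels was not tested.

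Markers of other lineages moved with these differences at HP. Trophoblast sums were 24.2 to 43.1 CPM in 2i+LIF HP, 0 to 0.954 CPM in CH+LIF HP and 5.15 to 9.79 CPM in LIF HP. Mesoderm sums were 21.1 to 47.4, 8.59 to 17.5 and 7.21 to 9.85 CPM in the same order, and pluripotency sums 1679 to 2603, 2934 to 3309 and 3142 to 3405 CPM. Of the single genes, CH+LIF HP set against 2i+LIF HP had Cdx2, Krt7 and T called lower and Tbx3, Tdgf1 and Utf1 higher. Of 3 tested mesoderm markers T alone was called there, and their median log2 change was 0.188. With 1 library left out, the T call was lost in 16 of 21 fits and those of Cdx2 and Tbx3 in 4 each. For LIF HP set against 2i+LIF HP the genes called were T, lower, lost in 10 of 21 fits, and Tdgf1, higher. The median log2 change of the 3 tested mesoderm markers was -2.14 there. Between LIF HP and CH+LIF HP, Utf1 was called lower, and sums of neural ectoderm markers were 88.1 to 144.8 and 57.7 to 60.2 CPM. The fibroblast sum was 7.39 to 9.79 CPM in LIF HP and 11.7 to 20.6 CPM in CH+LIF HP, and that of primitive endoderm 35.8 to 61.6 CPM in 2i+LIF HP and 24.65 to 34.3 CPM in CH+LIF HP, with 0 of 2 and 0 of 1 tested called by edgeR. DESeq2 called 1 and 0, and as many had an unadjusted p under 0.05. When both libraries that stood apart were left out, edgeR called 1 fibroblast marker lower and 1 trophoblast marker higher in LIF HP set against CH+LIF HP. Set against 2i+LIF HP, it then called 4 pluripotency genes, 1 neural ectoderm and 1 fibroblast marker higher in CH+LIF HP. In LIF HP it called 3 pluripotency genes and 1 neural ectoderm marker higher and 1 trophoblast marker lower. All genes then called were 3.39% lower and 3.53% higher for LIF HP against CH+LIF HP. Against 2i+LIF HP they were 2.42% higher for CH+LIF HP, and 7.19% higher and 5.83% lower for LIF HP. In either direction, calls over all genes rose from 1.47 to 6.92% for LIF HP against CH+LIF HP. Against 2i+LIF HP they rose from 2.02 to 4.95% for CH+LIF HP and from 3.78 to 13% for LIF HP. The part of these markers in the Etv1 and Etv4 differences was not tested.

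Against 2i+LIF PO, Etv4 was higher in 5 of the 6 cultured groups and was among the genes with the smallest p of all. It rose 28.9-fold in 2i+LIF LP (log2 4.86 ± 0.42, edgeR adjusted p = 1.1e-07), 26.6-fold in CH+LIF LP (4.73, adjusted p = 1.79e-07) and 19.7-fold in LIF LP (4.30, adjusted p = 2.54e-07). It was 8.19-fold higher in 2i+LIF HP (3.03, edgeR adjusted p = 4.22e-05) and 18.9-fold higher in CH+LIF HP (4.24, adjusted p = 1.36e-06). Etv4 had the lowest p of all 10643 genes against PO in 2i+LIF LP, CH+LIF LP and CH+LIF HP. The PO libraries held at most 6.54 CPM and the lowest library of these 5 groups 21.8 CPM. Libraries lay above all of PO for 8.34% of all genes in 2i+LIF LP and for 13.1 to 16.4% in the other 4 groups. In LIF HP, at 10.9 ± 5.00 CPM against 5.26 ± 1.12 CPM, the libraries overlapped and the log2 difference of 1.08 was not called (interval 0.19 to 1.98, edgeR adjusted p = 0.0863).

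Etv1 was called higher than in 2i+LIF PO in 4 groups. The log2 differences were 1.94 in CH+LIF LP (edgeR adjusted p = 0.0118), 2.11 in LIF LP (adjusted p = 0.00443), 1.49 in 2i+LIF HP (adjusted p = 0.042) and 2.04 in CH+LIF HP (adjusted p = 0.0121). In 2i+LIF LP the difference of 1.49 was not called (edgeR adjusted p = 0.0596). Without replicate 1 of that group, the library with 8 counts, it was 1.95 and called (edgeR adjusted p = 0.00253). The 2i+LIF HP call was lost in 10 of the 21 fits that left out 1 library, among them each fit without a library of either group compared, with values of 1.26 to 1.70. In LIF HP the difference was -0.76 and not called (interval -1.88 to 0.36, edgeR adjusted p = 0.3533).

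The members called against PO were thus 1 of 3 in 2i+LIF LP and 2 of 3 in CH+LIF LP, LIF LP, 2i+LIF HP and CH+LIF HP, beside 5.06, 8.31, 12, 10.6 and 5.82% of all genes in the same order. In LIF HP 0 of 3 were called by edgeR or DESeq2, beside 12.3% of all genes, and 1, Etv4, had an unadjusted p under 0.05. Etv5 was not called against PO in any group, with differences from -0.18 in LIF HP to 0.36 in CH+LIF HP. These 6 comparisons share the PO libraries. Neural ectoderm markers summed to 36.9 to 72.4 CPM in PO, 110 to 253 CPM over the LP groups and 35.5 to 156.2 CPM over the HP groups, with Sox1, Pax6 and Tubb3 called higher in LIF LP and Pax6 in 2i+LIF HP. Pax6 and Tubb3 were called higher in 2i+LIF LP as well, but 0 of 4 were without both libraries that stood apart (edgeR adjusted p = 0.149 and 0.171). In 2i+LIF HP 1 was then called higher and 1 lower. The pluripotency sum was 4193 to 4894 CPM in PO. In the order 2i+LIF LP, CH+LIF LP, LIF LP, 2i+LIF HP, CH+LIF HP and LIF HP, edgeR called 2, 4, 4, 8, 1 and 5 of the 12 pluripotency genes lower than in PO, and Pou5f1 higher in LIF HP (lost in 5 of 21 fits). All genes called lower were 2.27, 4.07, 6.11, 4.79, 2.45 and 5.17% in that order, and 7.1% were higher in LIF HP. Without both libraries the pluripotency counts were 4, 4, 4, 7, 4 and 5 lower, beside 4.33, 6.45, 10.4, 9.3, 5.61 and 5.08% of all genes. In that fit 1 was higher in each of LIF LP and LIF HP, beside 10.4 and 7.59% of all genes. Cdx2, Krt7 and T were called higher in 2i+LIF HP, with the Cdx2 call lost in 5 of 21 fits. Of 3 tested mesoderm markers T alone was called there, and their median log2 change was -1.19. All genes called higher there were 5.8%. The part of these markers in the Etv1 and Etv4 differences was not tested. The calls of Etv4, and those of Etv1 in CH+LIF LP, LIF LP and CH+LIF HP, held without both libraries that stood apart.

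Over the 15 comparisons of groups, Etv4 was called in 9, 5 higher and 4 lower, and Etv1 in 7, 4 higher and 3 lower. Etv5 was called in 0 by edgeR, and none of its unadjusted p-values, at least 0.14, was under 0.05. DESeq2 and the other alternative fits also made no call for it. Its log2 differences ran from -0.54 to 0.43 and the outer bounds of the intervals from -1.30 to 1.19.

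Because all 3 genes are counted in the same library, the number of Etv4 or Etv1 counts per 100 Etv5 counts does not depend on how libraries are scaled. This ratio was chosen after the levels had been seen, and it carries the genes' lengths, so that it is compared between groups and not read as relative abundance. Per 100 Etv5 counts there were 1.42 to 3.36 Etv4 counts in 2i+LIF PO and 2.24 to 8.39 in LIF HP. The LP groups held 56.7 to 108 in 2i+LIF, 58.7 to 69.1 in CH+LIF and 40.1 to 48.1 in LIF. In 2i+LIF HP the ratio was 7.80 to 30.5 and in CH+LIF HP 24.3 to 42.3. HP libraries lay below all LP libraries of the same medium in all 3 media, by 5.05-fold in 2i+LIF, 1.85-fold in CH+LIF and 9.19-fold in LIF. A two-sided exact permutation test gave p = 0.1 in each, the smallest that 3 against 3 libraries allow, and 0.15 after adjustment over 6 such tests.

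**Figure D3:**
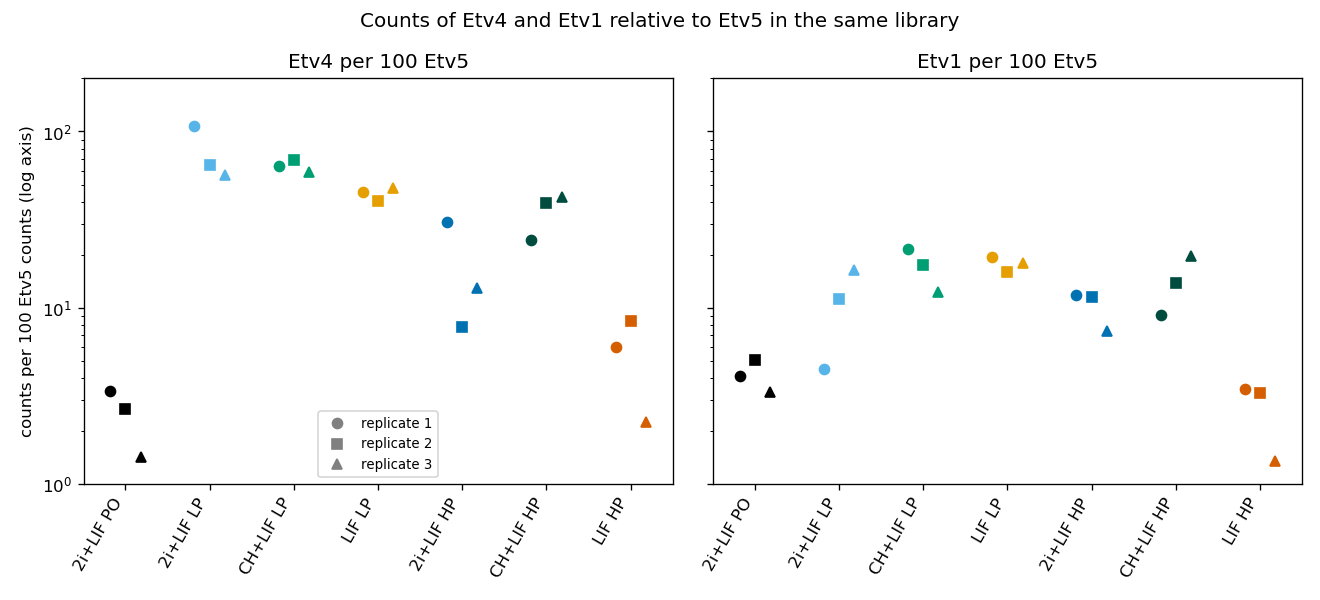
Etv4 and Etv1 counts per 100 Etv5 counts on a log axis in each library, by group, with 1 point per library and the replicate shown by its shape. In each medium the Etv4 ratio is lower in HP than in LP in every library, and the Etv1 ratio is lower throughout in LIF alone among the 3 media.

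Etv1 counts per 100 Etv5 counts were 15.9 to 19.4 in LIF LP and 1.34 to 3.46 in LIF HP, 7.14-fold lower and with no overlap (two-sided exact permutation p = 0.1). The HP and LP libraries overlapped in 2i+LIF, at 7.41 to 11.7 and 4.47 to 16.3 (exact permutation p = 0.8), and in CH+LIF, at 9.13 to 19.6 and 12.3 to 21.7 (exact permutation p = 0.6). In PO this ratio was 3.31 to 5.03. In 2i+LIF LP replicate 1 it was 4.47, the lowest of its group, while the Etv4 ratio there was the highest of all libraries at 108.

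The other genes of the pathway were taken from lists chosen with earlier results of these data in view. Of the ligands and receptors, 2 of 8 genes were expressed enough to be tested. Fgf4, the main FGF ligand of embryonic stem cells, stood at 224 ± 20.9 CPM in LIF HP. It was called higher there than in 2i+LIF HP, at 57.1 ± 25.3 CPM (log2 1.97, edgeR adjusted p = 0.0024). Against 2i+LIF PO, at 248 ± 28.4 CPM, Fgf4 was called lower in 2i+LIF HP (-2.11) and CH+LIF HP (-1.37), the latter call being lost in 4 of the 21 fits that left out 1 library. The PO and LIF HP groups, lowest in Etv1 and Etv4, were thus the highest by mean in Fgf4. Between LIF HP and LIF LP, however, edgeR and DESeq2 called 0 of the 2 tested genes, where edgeR called 9.96% of all genes. Neither had an unadjusted p under 0.05 there. Over the 21 libraries the Pearson correlation of Fgf4 in log2 CPM was -0.342 with Etv1 and -0.387 with Etv4.

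Of 17 tested genes of the cascade itself, from Sos1 to the ribosomal S6 kinases, 2 were called between LIF HP and LIF LP, both lower, a share near the 9.96% of all genes called there. The RAF kinase Braf, 1 of these, changed by -1.48 on the log2 scale (edgeR adjusted p = 0.0233), a call lost in 3 of the 21 fits that left out 1 library. The list's median change was -0.21 beside 0.0077 over all genes. Nras, a RAS gene, was called lower at HP than at LP in 2i+LIF (-1.28, edgeR adjusted p = 0.0293), a call not made for any cascade gene without the libraries that stood apart. Of the genes that act on PEA3 genes or proteins (Cic, its partners Atxn1 and Atxn1l, and the COP1 ubiquitin ligase with its adaptors), 7 of 8 were tested and edgeR called 0 in any comparison of media or of HP with LP. At an unadjusted p under 0.05 at most 2 of the 7 passed in any of these, and DESeq2 called 1, between CH+LIF HP and 2i+LIF HP. Without both libraries that stood apart, edgeR called 1 of the 7 higher at HP in 2i+LIF when set against LP, beside 2.72% of all genes, and at HP 1 lower in CH+LIF when set against 2i+LIF, beside 2.54%. Against PO, Cic was called higher in 2i+LIF HP, at 94.3 ± 32.9 against 41.4 ± 6.42 CPM (edgeR adjusted p = 0.0457), a call lost in 12 of the 21.

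Feedback inhibitors fell beside Etv1 and Etv4 in LIF. Between LIF HP and LIF LP, 5 of 9 tested (13 listed) were called lower and 0 higher, beside 4.63% of all genes called lower, with a median log2 change of -1.74 against 0.0077 over all genes. These were the phosphatases Dusp5 and Dusp6, the Sprouty genes Spry2 and Spry4 and the related Spred1. Dusp6 went from 27.6 ± 17.1 to 0.411 ± 0.711 CPM (edgeR adjusted p = 0.000568) and Spry4 from 8.95 ± 2.09 CPM to no count in any LIF HP library (adjusted p = 0.00385). Spry2 went from 237 to 70.8 CPM (edgeR adjusted p = 0.00803). These 3 were called in all 21 fits that left out 1 library, while the call was lost in 13 of them for Dusp5 and 2 for Spred1. Between 2i+LIF HP and 2i+LIF LP, 2 of 9 fell, Dusp6 and Spry4, beside 2.05% of all genes, with calls lost in 5 and 3 of the 21. The same genes were higher in CH+LIF HP when set against 2i+LIF HP and lower in LIF HP when set against CH+LIF HP. All genes called in those directions were 1.1 and 0.874%. In both comparisons with CH+LIF HP the Spry4 call was lost in 4 of the 21 and the Dusp6 call in 0. Between CH+LIF HP and CH+LIF LP edgeR and DESeq2 called 0 of 9, and 0 had an unadjusted p under 0.05, Dusp6 standing at 37.1 ± 5.75 and 38.0 ± 4.22 CPM. Against PO, 2 were higher in 2i+LIF LP, 3 in CH+LIF LP, 4 in LIF LP, 3 in CH+LIF HP, and 0 in 2i+LIF HP and LIF HP, and none was lower. All genes called higher were 2.79, 4.24, 5.84 and 3.36% in the first 4 of these. In 2i+LIF HP and LIF HP, 2 of the 9 each had an unadjusted p under 0.05, and DESeq2 called 2 and 1. Without both libraries that stood apart, 10 genes of the list were tested and LIF HP against LIF LP again called 5 lower, while LIF HP against CH+LIF HP called 4 lower in place of 2 and LIF HP against 2i+LIF HP 3 lower in place of 0. All genes called lower then rose as well, to 10.2, 3.39 and 5.83%, from 4.63, 0.874 and 1.68%. LIF HP against 2i+LIF HP had 0 of 9 called over all libraries by edgeR, 4 with an unadjusted p under 0.05 and 1 called by DESeq2. Against PO, edgeR without both libraries called 3 higher in 2i+LIF LP in place of 2 and 1 higher in 2i+LIF HP in place of 0, where 5.56 and 10.3% of all genes were higher, and 1 lower in each of LIF LP and LIF HP in place of 0, where 10.4 and 5.08% were lower.

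Immediate early genes, whose transcription follows ERK activation within minutes, gave 3 of 7 tested lower at HP than at LP in LIF (Egr1, Fos and Phlda1) and 2 in 2i+LIF (Egr1 and Fos), beside 4.63 and 2.05% of all genes called lower. When both libraries that stood apart were left out, 3 were lower in LIF and 4 in 2i+LIF, beside 10.2 and 3% of all genes. With 1 library left out, the LIF calls were lost in 0 of 21 fits for Egr1, 5 for Fos and 6 for Phlda1, and the 2i+LIF calls in 5 for Egr1 and 2 for Fos. Egr1, a zinc finger factor, stood at 0.341 ± 0.295 CPM in 2i+LIF PO, 37.7 ± 18.6 CPM in LIF LP, and 25.5 ± 18.8 CPM in CH+LIF HP. At HP it was 1.54 ± 1.03 CPM in 2i+LIF and 0.377 ± 0.330 CPM in LIF. Phlda1 stood at 24.2, 183 and 77.6 CPM in the 2i+LIF HP libraries, 94.98 ± 80.9 CPM by mean, so that replicate 2 set much of the level. There it was called higher than in PO (log2 4.01, edgeR adjusted p = 9.31e-05) and than in LIF HP, also in all 21 fits that left out 1 library, in which the difference from PO was at least 3.09. Phlda1 was also called higher than in PO in 2i+LIF LP, CH+LIF LP, LIF LP and CH+LIF HP. Of the 7 tested, edgeR called 2, 4, 3, 1, 2 and 0 higher than in PO. The order is 2i+LIF LP, CH+LIF LP, LIF LP, 2i+LIF HP, CH+LIF HP and LIF HP. All genes called higher were 2.79, 4.24, 5.84, 5.8, 3.36 and 7.1%. In LIF HP DESeq2 also called 0, and 0 had an unadjusted p under 0.05. The difference in the HP against LP change between LIF and CH+LIF was called for Dusp6 (-5.75, edgeR adjusted p = 0.0301) and Egr1 (-6.11, adjusted p = 0.0459), calls lost in 8 and 14 of the 21.

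In 2i+LIF LP the libraries differed among themselves in these genes. Dusp6 stood at 0.701, 34.4 and 26.3 CPM and Spry4 at 2.81, 17.6 and 6.71 CPM in replicates 1, 2 and 3. Replicate 1 was thus low in Etv1, Etv5 and Dusp6 and not in Etv4. It is the library with 391400 CPM of Gm42418, and the part of that gene in these values was not tested.

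**Figure D4:**
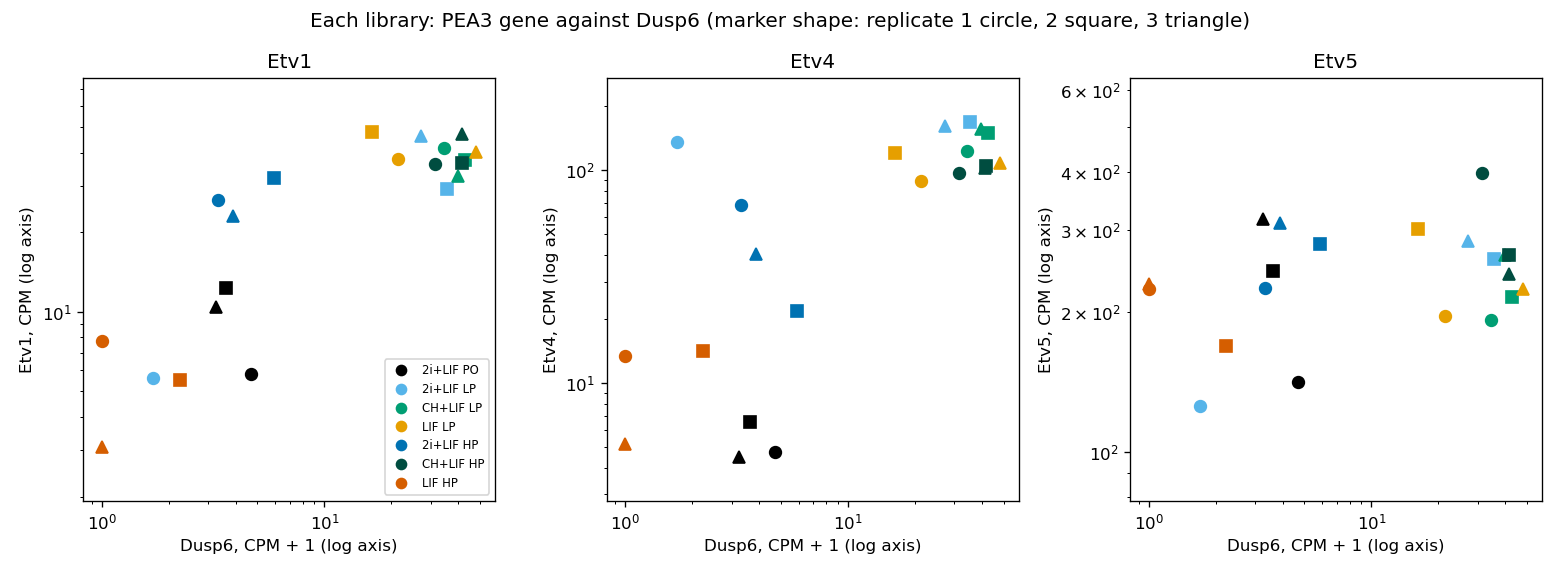
Levels of each PEA3 gene in CPM against Dusp6 in CPM + 1, both on log axes, with 1 point for each of the 21 libraries, coloured by group and shaped by replicate. Etv1 and Etv4 rise with Dusp6 across most groups, while Etv5 shows little order. The 2i+LIF HP libraries overlap 2i+LIF PO in Dusp6 but lie above it in Etv1 and Etv4. Replicate 1 of 2i+LIF LP is low in Dusp6 and high in Etv4.

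Across the 21 libraries, which fall into 7 groups and so are not independent points, log2 CPM of Dusp6 had a Pearson correlation of 0.863 with Etv1, 0.747 with Etv4 and 0.309 with Etv5. Spry4 gave 0.749, 0.828 and 0.157, and Egr1 0.867, 0.761 and 0.274. Among the members the correlation was 0.758 for Etv1 and Etv4, 0.5 for Etv1 and Etv5 and 0.115 for Etv4 and Etv5. Without both libraries that stood apart these became 0.872, 0.255 and 0.0631. These are descriptions of libraries that share groups, depth and scaling.

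By the same measure over 10642 other genes, those most like Etv1 were Mastl (0.895), Kifc3 (0.893), Shisa5 (0.887), Maats1 (0.881) and Tex10 (0.878). For Etv4 the first 5 included Ttk (0.885), Sox11 (0.874), Pom121 (0.874) and Slc39a14 (0.87). For Etv5 they included Chp1 (0.806), Cdc6 (0.793), Lncenc1 (0.775) and Sin3b (0.772). Without both libraries that stood apart, none of the genes named here was among the first 5 of its member.

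Of 22 other ETS genes, 13 were tested, and between LIF HP and LIF LP 1 of them was called, Elf3, where 9.96% of all genes were called. Elf3, an epithelial ETS factor, moved opposite to Etv1 and Etv4: it was called higher in LIF HP than in LIF LP, at 61.1 ± 13.5 against 19.0 ± 3.11 CPM (log2 1.68, edgeR adjusted p = 0.0195), and than in CH+LIF HP (1.92, adjusted p = 0.0304). Elf3 was also called lower than in PO in CH+LIF LP, LIF LP and CH+LIF HP, by -1.76, -1.79 and -2.02, and its correlation with Etv1 and Etv4 over the 21 libraries was -0.775 and -0.761. Ets2, an ETS factor that ERK itself phosphorylates, was called higher in LIF HP against 2i+LIF HP (1.23, edgeR adjusted p = 0.0438), and Elk4, a partner of serum response factor, lower in LIF HP than in PO (-2.17, adjusted p = 0.024). With 1 library left out, these calls were lost in 13 of 21 fits for Ets2 and 2 for Elk4, and those of Elf3 in 5 against LIF LP, 6 against CH+LIF HP and 1 to 3 against PO. In each of these comparisons 1 of the 13 was called. All genes called were 3.78% for LIF HP against 2i+LIF HP and 1.47% against CH+LIF HP. Against PO they were 8.31% in CH+LIF LP, 12% in LIF LP, 5.82% in CH+LIF HP and 12.3% in LIF HP. Between HP and LP in CH+LIF and in 2i+LIF, edgeR and DESeq2 called 0 of the 13, and 0 had an unadjusted p under 0.05. Without both libraries that stood apart, edgeR called 1 of the 13 higher at HP in 2i+LIF in place of 0, 2 higher at HP in LIF in place of 1, and, for LIF HP set against 2i+LIF HP, 2 higher and 1 lower in place of 1 higher. All genes called in those directions were 2.72, 11.5, 7.19 and 5.83%. For CH+LIF HP set against 2i+LIF HP, edgeR without both libraries called 2 lower in place of 0, beside 2.54% of all genes. DESeq2 called 2 of the 13 there over all libraries. Against PO, edgeR without both libraries also called 1 lower in 2i+LIF LP and 1 higher in 2i+LIF HP in place of 0. All genes called in these directions were 4.33 and 10.3%.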

How the data were processed

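For each library the authors deposited raw read counts, as whole numbers without normalization, for 31053 Ensembl gene IDs and 5 closing entries. Per the submitters' processing notes, bcl2fastq, STAR 2.6.0a and HTSeq were used with build mm10. Annotation, strand setting and filters are not given in the sources used here. Gene counts were 47.4 to 62.0% of all entries, and the closing entries were left out of library sizes and tests. Symbols came from GENCODE M21, in which 31011 IDs were found and 42 were not.

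All 21 libraries entered 1 edgeR 4.0.16 quasi-likelihood fit (R 4.3.3) with a coefficient per group, TMM scaling and filterByExpr, which left 10643 genes and 14 residual degrees of freedom. Two-sided p-values were adjusted by Benjamini-Hochberg over all genes of a contrast and called under 0.05. Standard errors are the absolute log2 change over the square root of F, and intervals are approximate 95% intervals on 14 degrees of freedom. CPM were computed here from the deposited counts and TMM-scaled library sizes, with a prior count of 2 on the log2 scale. No replicate pair agreed within counting noise (lowest chi-square per degree of freedom 5.21). On simulated counts for LIF HP against LIF LP over 10272 genes, 80 of 96 genes changed 8-fold and 48 of 98 changed 4-fold were called, and 13 of 10078 unchanged ones.

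Alternatives were DESeq2 1.42.0, its size factors in edgeR, no low-count filter, only the groups compared, a replicate block, limma 3.58.1 voom with quality weights, both libraries that stood apart left out, mitochondrial genes and Gm42418 removed, and each library left out in turn. Same-numbered libraries deviated together (correlations over 0.1 in all 3 pairs) in 1 of 15 comparisons, 2i+LIF LP against 2i+LIF PO (0.397, 0.345 and 0.179). The numbers come from the labels. The block changed no call there.

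Always named were Etv1, Etv4 and Etv5, with genes of the fixed lists where called or where a result turns on them, and the 5 genes most correlated with each member. Some genes that this rule names are not reported here. Of 12 lists, 6 hold markers of cell types. The members and lists were chosen with earlier results of these data known.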

Additional observations from a re-analysis of the deposited data

Results flagged for a closer look

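The difference between LIF and CH+LIF in the change from LP to HP was tested directly, and was called for Etv1 and Etv4. The Etv1 difference was -2.965 on the log2 scale with an edgeR adjusted p of 0.0474: from LP to HP the gene fell in LIF, by 2.87, and had a change of 0.10 in CH+LIF that was not called. The Etv4 difference was -2.725 with an edgeR adjusted p of 0.0189, set by a fall of 3.22 in LIF beside a change of -0.49 in CH+LIF that was not called. With 1 library left out, the Etv1 call was lost in 16 of 21 fits and the Etv4 call in 5, and with the replicate block the Etv1 call was lost (-2.90, edgeR adjusted p = 0.0572).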

How the results depend on the processing

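The falls of Etv1 and Etv4 in LIF HP against LIF LP and against CH+LIF HP were called in all 29 alternatives, as were the 5 rises of Etv4 over 2i+LIF PO and those of Etv1 in CH+LIF LP, LIF LP and CH+LIF HP. The fall of Etv4 in 2i+LIF HP against 2i+LIF LP was lost only in the fit on those groups alone (-1.86). That kind of fit also lost Etv1 in 2i+LIF HP against PO (1.50). The replicate block gave -2.90 for the Etv1 difference of LIF from CH+LIF, which was then not called (edgeR adjusted p = 0.0572), and changed no other call. Calls were gained for Etv4 in CH+LIF HP over 2i+LIF HP by DESeq2 (1.18), voom (1.45) and without both libraries that stood apart (1.18). They were gained for Etv1 in 2i+LIF LP over PO by DESeq2 (1.48), without a low-count filter (1.49), by voom (1.56) and without both libraries (1.72). The cause of these changes was not tested.

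Reversed signs occurred only in differences that were never called. For Etv5 in CH+LIF against 2i+LIF at LP they were -0.022 with DESeq2, -0.021 with its size factors, -0.015 without a filter, -0.20 with voom, -0.30 without both libraries, -0.024 without mitochondrial genes and Gm42418 and -0.039 in the groups alone. Etv5 in LIF LP gave -0.14 (voom) and -0.17 (without both libraries) against 2i+LIF LP, and -0.25 and -0.22 against PO. In 2i+LIF HP against PO it gave -0.038 and -0.041. Etv1 gave -0.028 in CH+LIF against 2i+LIF at LP without both libraries. In 2i+LIF HP against 2i+LIF LP it gave 0.015 with DESeq2, 0.015 with its size factors and 0.080 with the replicate block, which also gave 0.0054 for the Etv1 difference of 2i+LIF from CH+LIF in the change from LP to HP.

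With each library left out in turn, Etv1 ranged from -0.44 to 0.59 in 2i+LIF HP against LP, 1.26 to 1.70 in 2i+LIF HP and 0.90 to 1.95 in 2i+LIF LP against PO, -0.024 to 0.19 in CH+LIF HP against LP, -0.018 to 1.03 in CH+LIF against 2i+LIF at LP, and -2.62 to -2.05 in LIF HP against 2i+LIF HP. The Etv1 differences in change from CH+LIF ranged from -0.55 to 0.48 for 2i+LIF and -3.35 to -2.77 for LIF. Etv4 ranged from 0.88 to 1.73 in CH+LIF HP and -2.28 to -1.43 in LIF HP against 2i+LIF HP, and from -2.96 to -2.47 in the difference of LIF from CH+LIF. Etv5 ranged against PO from -0.047 to 0.52 (2i+LIF HP), -0.32 to 0.22 (2i+LIF LP), -0.33 to 0.21 (CH+LIF LP), -0.46 to 0.099 (LIF HP) and -0.22 to 0.33 (LIF LP). It ranged from -0.0999 to 0.28 in CH+LIF against 2i+LIF at HP, -0.28 to 0.19 in CH+LIF LP and -0.16 to 0.31 in LIF LP against 2i+LIF LP, -0.099 to 0.25 in LIF LP against CH+LIF LP, and -0.41 to 0.11 in the difference of 2i+LIF from CH+LIF.

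Counts of genes called moved by over 1.5 times: for LIF HP against LIF LP 1060, with 399 to 2747 in the alternatives, against CH+LIF HP 1.47% of genes tested (29 to 1420 genes) and against 2i+LIF HP 402 (123 to 1427). They were 391 (52 to 672) for 2i+LIF HP against LP, 215 (99 to 543) for CH+LIF HP against 2i+LIF HP, 1 (0 to 66) for CH+LIF HP against LP, 0 (0 to 133), 52 (3 to 276) and 5 (1 to 42) for the media at LP, and 45 (5 to 914) and 2 (1 to 48) for the differences of LIF and 2i+LIF from CH+LIF. Against PO they were 539 (1 to 1928), 884 (380 to 2325), 1272 (571 to 3274), 1127 (328 to 2150), 619 (200 to 2854) and 1306 (424 to 2627). Depth limited Etv1 most, with 3 to 15 counts in LIF HP and 8 in 2i+LIF LP replicate 1.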
